A study of Mus musculus with 25 samples.

Results

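The genes described here are 10 enzymes and readers of histone H3 lysine 9 methylation, a mark of silent chromatin. They were chosen by symbol as the H3K9 methyltransferases Ehmt1, Ehmt2, Suv39h1 and Suv39h2, the demethylases Kdm4a, Kdm4c and Kdm4d, and the HP1 proteins Cbx1, Cbx3 and Cbx5. All 10 were among the 24412 symbols of the RNA-seq files, and 9 passed the filter on low values, which asked for 3 or more libraries with an FPKM of 1 or higher. Kdm4d did not, and its values are given without a test in the main fit.

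Methylation of H3K9 is written by SET-domain enzymes, removed by Jumonji demethylases and read by HP1 proteins, whose chromodomain binds the methylated lysine and which compact the chromatin. Ehmt1 (GLP) and Ehmt2 (G9a) form a heterodimer that makes the mono- and dimethyl mark, and the SUV39H enzymes make the trimethyl mark of pericentromeric heterochromatin. In the mouse zygote the maternal genome carries H3K9 methylation that the paternal genome largely lacks, and the embryo relies on RNA and protein stored in the oocyte until its own genome is transcribed, which in the mouse happens mainly at the 2-cell stage.

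The study measured RNA in 25 libraries from metaphase II oocytes (MII, 3 wild type and 2 knockout), pronuclear stage 3 zygotes (PN3, 4 and 4), early 2-cell embryos (E2C, 3 and 3) and late 2-cell embryos (L2C, 3 and 3). It asked what loss of the maternal SWI/SNF ATPase Smarca4 (Brg1) does to RNA at these stages. Oocytes came from females aged 8 to 12 weeks, superovulated with 7 IU of PMSG and 5 IU of hCG given 48 h apart, and were used for intracytoplasmic sperm injection. The females were either B6D2F1 or C57BL/6 carrying Smarca4flox/flox and Gdf9 Cre, a driver active in oocytes, so the knockout (KO, named Brg1-cKO in the files) is a maternal one. The sources used here give neither the strain behind the wild-type (WT) libraries nor the genotype of the sperm, so strain and genotype cannot be told apart. They also do not tie replicates to separate animals, so p-values measure the spread between these libraries, which may be technical.

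Levels are FPKM (fragments per transcript length and library depth), scaled so that the median gene matched between libraries. They depend on the other genes of a library: fewer embryos, less RNA per embryo and a lower share of the RNA cannot be told apart. Depth is unknown because the values carry no counts, and no counting error could be given. WT E2C replicate 2 had values above 0 for 9345 genes, against 13585 to 16698 for each of the rest, so a gene listed at 0 in that library may be a failed estimate. Smarca4 itself was 19.0 to 90.4 scaled FPKM in the WT libraries. In KO it was 0.219 to 0.448 at MII and PN3, 0.767 to 5.12 at E2C and 21.03 to 22.45 at L2C, below every WT library of the same stage. All 10 oocyte markers were present in every group, and their sum was lower at L2C (327.6 to 941.4 scaled FPKM, against 2678 to 3056 at MII). The cumulus and granulosa markers summed to 1.30 to 18.7, with 2 to 6 of 10 listed at 0 in all libraries of a group, and the sperm markers to 1.57 to 19.5. WT L2C replicate 3 stood with the KO libraries: its oocyte markers summed to 820.1 and its 2-cell markers to 236.8, against 327.6 and 405.7, and 77.96 and 83.68, in the other WT L2C libraries, and 696.4 to 941.4 and 190.6 to 240.7 in KO.

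The promoters of 5 genes are printed. Cbx3 and Kdm4c carried the largest changes from early to late 2-cell embryo. Cbx1 with Cbx3, and Suv39h1 with Suv39h2, are pairs that went in opposite directions. Ehmt2, which had the next largest change (log2 difference 2.62 in WT), is not printed. Each printed promoter is the exon-free stretch of the 250 bases before the RefSeq start site (mouse build GRCm38.p6), 5′ to 3′ on the gene's strand. Capitals mark any match, on either strand, to 7 motifs: the GC box (GGGCGG), the CCAAT box (CCAAT), the TATA box (TATAAA), the E-box (CACGTG), the ETS motif (CGGAAG), the nuclear receptor half-site (AGGTCA) and the core of the OBOX homeodomain motif (TAATCC).
Cbx1 promoter (chr11:96788885-96789126, plus strand): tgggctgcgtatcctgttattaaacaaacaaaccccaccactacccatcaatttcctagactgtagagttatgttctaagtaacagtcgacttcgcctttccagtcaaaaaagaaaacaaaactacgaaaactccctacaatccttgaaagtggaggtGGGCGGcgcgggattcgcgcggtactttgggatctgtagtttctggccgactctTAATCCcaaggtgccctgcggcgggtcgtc
Cbx3 promoter (chr6:51470432-51470529, plus strand): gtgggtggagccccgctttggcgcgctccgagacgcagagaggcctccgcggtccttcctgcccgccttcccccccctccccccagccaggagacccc
Suv39h1 promoter (chrX:8074761-8075010, minus strand): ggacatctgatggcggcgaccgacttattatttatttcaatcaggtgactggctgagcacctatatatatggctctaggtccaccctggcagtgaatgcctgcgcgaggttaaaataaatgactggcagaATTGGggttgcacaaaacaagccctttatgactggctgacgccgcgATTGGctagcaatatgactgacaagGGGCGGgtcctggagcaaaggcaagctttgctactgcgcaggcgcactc
Suv39h2 promoter (chr2:3475032-3475236, minus strand): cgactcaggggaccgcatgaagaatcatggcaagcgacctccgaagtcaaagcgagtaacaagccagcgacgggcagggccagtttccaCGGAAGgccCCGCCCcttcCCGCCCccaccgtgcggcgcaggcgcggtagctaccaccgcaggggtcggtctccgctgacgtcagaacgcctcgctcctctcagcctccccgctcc
Kdm4c promoter (chr4:74242247-74242496, plus strand): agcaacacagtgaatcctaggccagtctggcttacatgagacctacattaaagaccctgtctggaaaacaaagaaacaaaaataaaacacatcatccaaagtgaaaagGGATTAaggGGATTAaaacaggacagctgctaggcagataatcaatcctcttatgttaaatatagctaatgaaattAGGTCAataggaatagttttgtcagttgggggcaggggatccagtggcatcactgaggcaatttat
Over 32851 RefSeq windows of 250 bases, 32.7% held a GC box, 33.8% a CCAAT box, 12.4% a TATA box, 6.02% the E-box, 13.6% the ETS motif, 14% the receptor half-site and 6.25% the OBOX core. The median window held 6 CpG and 52.4% GC. The whole Cbx3 window held 29 CpG and 73.2% GC, the Suv39h2 window 27 CpG and 69.6%, the Cbx1 window 16 CpG and 49.6%, and the Suv39h1 window 11 CpG and 51.6%. The Kdm4c window held 0 CpG and 39.6% GC, with a match to the receptor half-site and, at 2 places on the other strand, the OBOX core. The OBOX core was not particular to Kdm4c, as the Cbx1 window also held it, with a GC box. The whole Cbx3 window also held a GC box, which the printed stretch does not show. The windows of the 2 genes with the largest rises described below, Cbx3 and Kdm4c, thus lay at opposite ends in CpG and GC, and shared none of the 7 motifs. Cbx3, Kdm4c and Suv39h1 each have 2 RefSeq windows, and the one that starts nearest the annotated 5′ end of the gene was used. The contrast between Cbx3 and Kdm4c rests on that choice of start site. The whole Cbx3 window (chr6:51470366-51470615) lies inside the gene as annotated, whose 5′ end is at 51470360. The printed Cbx3 stretch is thus upstream of the RefSeq start site but not of the annotated 5′ end. A match is a string of letters, and nothing here shows that a factor binds it.

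In each methyltransferase pair, 1 gene had the higher RNA level in the oocyte and the other reached its highest level at the late 2-cell stage. Ehmt1, the higher of its pair in the oocyte, also had its highest group mean at L2C. It still made up 76.1% to 79.2% of the summed Ehmt1 and Ehmt2 level in WT L2C. Suv39h2 (chr2:3455815-3475031, minus strand, GRCm38) was the main SUV39H RNA of the oocyte, at 27.4, 29.0 and 27.8 scaled FPKM in WT MII. Suv39h1 (chrX:8061171-8074760, minus strand) was at 7.75, 7.68 and 7.64 in the same libraries. Suv39h2 thus made up 78.5% ± 0.542 (SD, n = 3) of the summed SUV39H level in WT oocytes.

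Suv39h1 dropped after fertilization and then returned. In WT PN3 it was 3.25, 3.02, 3.29 and 2.75 scaled FPKM, below every WT oocyte library, a fall of 1.09 on the log2(scaled FPKM + 1) scale (SE 0.0594, adjusted p = 5.59e-13, limma with Benjamini-Hochberg adjustment over 12079 genes, as for all adjusted p-values below; "called" means an adjusted p under 0.05). It stayed at 3.09 to 3.90 in WT E2C and reached 25.2, 23.0 and 18.8 in WT L2C, 6.28 times the E2C mean. That rise was 2.35 on the log2 scale (SE 0.216, adjusted p = 7.98e-09), with no overlap between the stages. The KO libraries showed the same course in their levels, from 7.05 to 7.35 at MII through 2.83 to 3.38 at PN3 and 2.48 to 3.49 at E2C to 15.3 to 22.1 at L2C.

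Suv39h2 moved the other way. It rose from MII to PN3 (36.5, 37.7, 31.0 and 30.9 in WT PN3, log2 difference 0.26, adjusted p = 0.00209) and fell from E2C (25.3, 26.2 and 32.5) to L2C (16.7, 15.2 and 22.2, log2 difference -0.61, adjusted p = 0.0355). Both changes were small beside those of Suv39h1. The first was not called when 1 spread was shared by all stages (adjusted p = 0.324), and the second was lost without WT E2C replicate 3, WT L2C replicate 1 or WT L2C replicate 2 (adjusted p = 0.0867 to 0.135) and on the deposited values without scaling (adjusted p = 0.0556). As a result Suv39h1 made up 45.8% to 60.2% of the summed SUV39H level in WT L2C, against 10.2% to 13.4% in WT E2C, while the sum itself was 38.2 to 42.0 against 29.2 to 36.2 scaled FPKM. In the annotation an exon of Suv39h2 overlaps Dclre1c on the opposite strand and exons of both genes overlap antisense transcripts, and the sources used here do not say whether the counting used strand, so reads of the partners may be included.

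Ehmt1 (chr2:24789928-24919614, minus strand) was present at every stage, and Ehmt2 (chr17:34898469-34914052, plus strand) only reached an FPKM of 1 in late 2-cell libraries. Ehmt1 was 11.2, 11.3 and 12.4 scaled FPKM in WT MII and 11.4 to 13.7 in WT PN3. In WT E2C its values were 15.7, 6.64 and 10.5, and in WT L2C 30.1, 25.5 and 10.2, so the 2 stages overlapped through WT L2C replicate 3. The difference of 0.88 passed the test (adjusted p = 0.0323), but not after leaving out WT E2C replicate 2 or 3, or WT L2C replicate 1 or 2 (adjusted p = 0.0652 to 0.177), with each pair of stages fitted alone (0.0674) or with no filter (0.0543).

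Ehmt2 was 0.286, 0.313 and 0.447 in WT MII and 0.117 to 0.471 in WT PN3. In WT E2C it was listed at 0, 0 and 0.339, and in WT L2C it was 7.92, 8.00 and 2.90. All 6 L2C libraries were above all 19 earlier ones. The WT rise from E2C to L2C was 2.62 on the log2 scale (adjusted p = 2.49e-06), but Ehmt2 passed the filter only through its L2C libraries and so had to differ. Ehmt2 made up 20.8% to 23.9% of the summed Ehmt1 and Ehmt2 level in WT L2C and at most 3.801% in any earlier WT library.

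Among the demethylases of the set, Kdm4a (chr4:118136957-118180043, minus strand), which removes trimethyl marks from H3K9 and H3K36, was the stored form. Its WT values were 33.6, 32.4 and 33.1 scaled FPKM at MII and 44.3, 41.5, 44.5 and 44.4 at PN3, a rise of 0.39 (log2, adjusted p = 4.73e-06) with no overlap. At E2C they were 62.3, 63.3 and 50.5, above every PN3 library, but the log2 difference of 0.41 missed the threshold (adjusted p = 0.0524). It was called with 1 shared spread (0.00335) and with each pair of stages fitted alone (0.00704). Kdm4a then fell to 39.2, 35.9 and 42.6 at L2C (log2 difference -0.57, adjusted p = 0.0247), a call lost without WT E2C replicate 1 or 2 or without WT L2C replicate 2 (0.0501 to 0.0845). Kdm4a thus peaked at the early 2-cell stage in its group means, in both genotypes.

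Kdm4c (chr4:74242497-74405860, plus strand), a demethylase of the same trimethyl marks, was nearly absent before the late 2-cell stage. It was 0.0523 to 0.123 scaled FPKM in WT MII, 0.0602 to 0.174 in WT PN3 and 0.224 to 0.602 in WT E2C. In WT L2C it reached 23.6, 14.5 and 11.6, a log2 difference of 3.55 from E2C (SE 0.278, adjusted p = 7.85e-10). Kdm4c passed the filter through the 6 L2C libraries and 1 KO E2C library, so it too had to differ. Its share of the summed level of Kdm4a, Kdm4c and Kdm4d was 21.2% to 36.1% in WT L2C and at most 1.002% in earlier WT libraries. Kdm4b, another KDM4 gene, is outside the set and was not in this sum.

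Kdm4d (chr9:14462548-14500482, minus strand), a smaller KDM4 enzyme, was the lowest of the 10 in late 2-cell embryos. It was 0.0498 to 0.232 scaled FPKM in all WT libraries before L2C and 2.61, 0.311 and 0.422 in WT L2C, where only replicate 1 reached an FPKM of 1. KO L2C gave 0.821, 0.415 and 0.475. With no filter the WT difference from E2C to L2C was 0.72 (adjusted p = 0.0306 over 21592 genes), with only replicate 1 above 0.422.

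In WT the HP1 genes exchanged places at L2C. In KO Cbx3 rose as well, from a group mean of 1.18 at E2C to 30.9 at L2C, and Cbx1 held the larger share in 2 of 3 KO L2C libraries. Neither Cbx1 (adjusted p = 0.0639) nor Cbx3 (adjusted p = 0.426) was called between genotypes at L2C. Cbx1 (HP1 beta, chr11:96789127-96808640, plus strand) was the highest of the 10 genes in oocytes and zygotes, at 71.5, 67.8 and 68.7 scaled FPKM in WT MII and 83.9, 82.3, 78.4 and 90.0 in WT PN3. The rise between them was 0.27 (log2, adjusted p = 0.00291), and was not called with 1 shared spread (0.518). Cbx1 was 78.7, 47.4 and 69.6 in WT E2C and fell to 18.8, 12.1 and 24.4 in WT L2C (log2 difference -1.79, SE 0.252, adjusted p = 3.20e-06), with no overlap.

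Cbx3 (HP1 gamma, chr6:51470360-51483704, plus strand) was low in oocytes, at 1.22, 1.05 and 0.796, and in WT PN3 at 0.976 to 1.10. In WT E2C it was listed at 1.41, 0 and 2.27, and in WT L2C it was 69.9, 44.8 and 33.5. The log2 difference from E2C to L2C was 4.60 (SE 0.412, adjusted p = 5.67e-09), the largest of the 9 genes tested, and Cbx3 reached an FPKM of 1 in at least 1 library of each of the 8 groups. The annotation holds 8 processed pseudogenes of Cbx3, 0 of them in the files, so reads from such copies could not be checked. Cbx5 (HP1 alpha, chr15:103191544-103239816, minus strand) varied little, from 5.54 to 9.23 over all WT libraries. Its WT difference from E2C to L2C was 0.16 (adjusted p = 0.626), and turned to -0.08 relative to the median of all genes. Its rise from MII to PN3 (0.18, adjusted p = 0.0480) was lost when any 1 of 5 of the 7 libraries was left out, on the deposited values, with no filter, with the stages fitted alone and with 1 shared spread.

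In the summed HP1 level, Cbx1 held 90.1% to 91.6% in WT MII, 90.5% to 92.3% in WT PN3 and 85.8% to 90.3% in WT E2C, and 19.3%, 18.6% and 37.1% in WT L2C. Cbx3 held at most 2.79% in any WT library before L2C and then 71.5%, 68.8% and 51.0%. The sum of the 3 genes was of one order at all stages: 75.0 to 78.9 scaled FPKM in WT MII, 86.1 to 97.6 in WT PN3, 53.5 to 87.1 in WT E2C and 65.1 to 97.7 in WT L2C. The composition of HP1 RNA thus changed at L2C while its summed level there overlapped that of each earlier stage. These shares do not depend on the scaling between libraries.

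**Figure D1:**
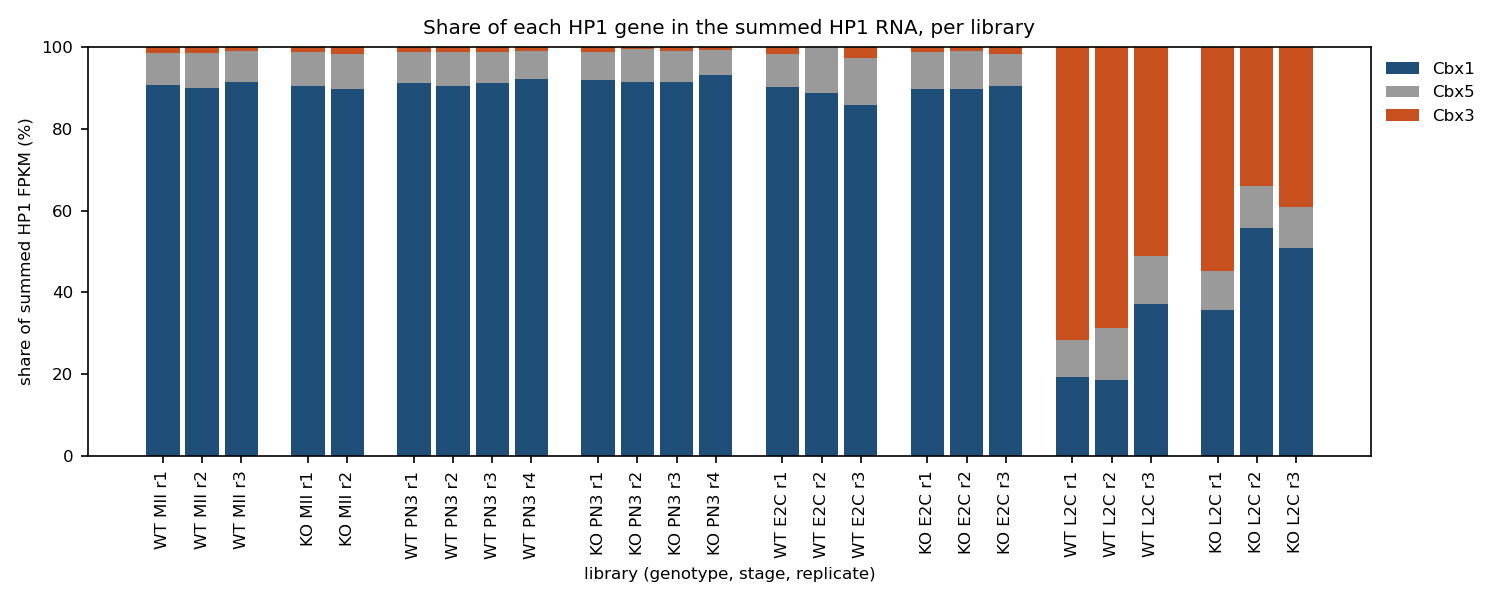
Share (%) of Cbx1 (blue), Cbx5 (grey) and Cbx3 (orange) in the summed scaled FPKM of the 3 HP1 genes, 1 bar per library, in the order of stage, genotype and replicate. Cbx1 holds at least 85.8% in every library before L2C; in L2C Cbx3 holds 51.0% to 71.5% in WT and 33.9% to 54.9% in KO.

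Across the 9 genes tested, 5 were called between WT MII and PN3 (4 higher, 1 lower), beside 45.2% of all genes tested (19.2% higher, 26.1% lower). From WT PN3 to E2C 0 were called, beside 31.0% of all genes. Of the 9, 1 was at an unadjusted p under 0.05 (limma), beside 5001 of all 12079 genes. With 1 shared spread 1 was called, beside 40.9% of all genes. From WT E2C to L2C 8 were called (5 higher, 3 lower), beside 52.4% of all genes (34.1% higher, 18.3% lower), and the median difference was 0.88 against 0.25 for all genes. The last count includes Ehmt2 and Kdm4c, which had to differ, and fell to 5 without WT L2C replicate 2. Relative to the median of all genes, the directions of the 8 were as given. Cbx3, Suv39h1 and Cbx1 were called under every alternative tried for this step.

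**Figure D2:**
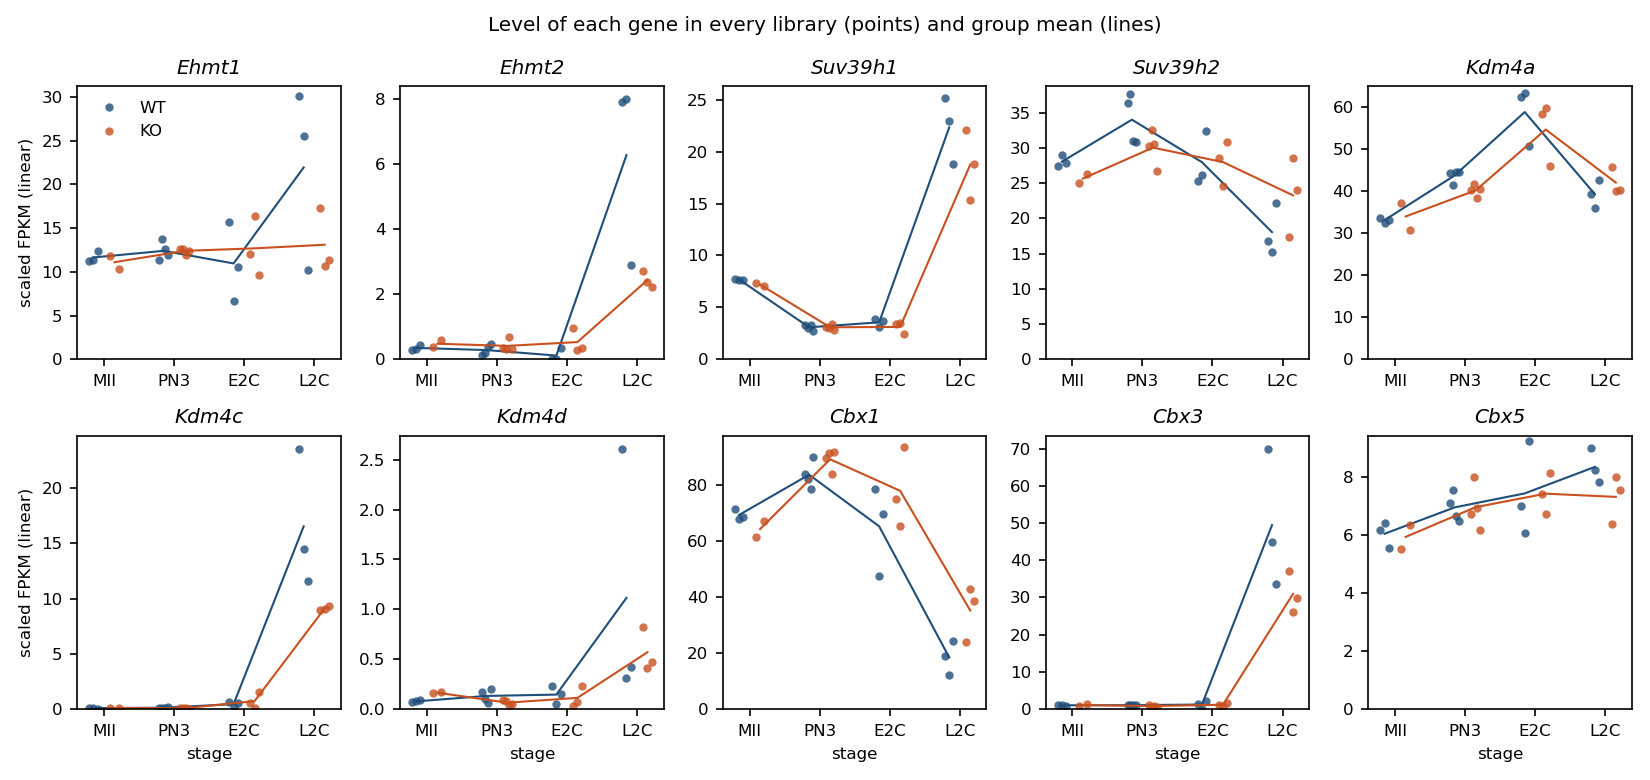
Scaled FPKM (linear axes that start at 0 and differ between panels) of the 10 genes by stage, with 1 point per library, WT in blue and KO in orange, and lines through the group means. Suv39h1, Ehmt2, Kdm4c and Cbx3 are highest at L2C in both genotypes and Cbx1 is lowest there; WT L2C replicate 3 lies with the KO libraries for Ehmt1 (10.2) and near them for Ehmt2 (2.90).

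The order of the genes by level per length changed with these shifts. In WT MII the means ran from Cbx1 (69.3 scaled FPKM) through Kdm4a (33.1), Suv39h2 (28.1), Ehmt1 (11.7), Suv39h1 (7.69), Cbx5 (6.04), Cbx3 (1.02) and Ehmt2 (0.349) to Kdm4c (0.0857) and Kdm4d (0.0773), and of the neighbours only Kdm4c and Kdm4d overlapped. In WT L2C the order was Cbx3 (49.4), Kdm4a (39.2), Suv39h1 (22.3), Ehmt1 (21.9), Cbx1 (18.4), Suv39h2 (18.1), Kdm4c (16.5), Cbx5 (8.35), Ehmt2 (6.27) and Kdm4d (1.12). There Cbx3 overlapped Kdm4a, and the neighbours from Suv39h1 to Kdm4c each overlapped the next, as did Cbx5 and Ehmt2, so their order is not resolved. In KO L2C the highest mean was that of Kdm4a (41.9), followed by Cbx1 (35.2) and Cbx3 (30.9), which also overlapped their neighbours.

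None of the 9 genes was called between KO and WT at any of the 4 stages. The number at an unadjusted p under 0.05 (limma) was 0 (MII), 1 (PN3), 0 (E2C) and 3 (L2C). Of all 12079 genes tested, 3135, 1950, 722 and 2136 were at an unadjusted p under 0.05, in the same order of stages. The shares of all genes tested that were called, at an adjusted p under 0.05, were 13.0%, 3.05%, 0.00828% and 0.770%. With each stage fitted alone 0 of the 9 were called at each stage. With 1 shared spread 3 were called, all in late 2-cell embryos, beside 0.00828%, 0.0828%, 1.76% and 15.5% of all genes in the order of stages.

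In oocytes the differences were small on the log2 scale. Their intervals were narrow, but they rest on a fit over all 25 libraries with weights by stage, as KO MII has 2 libraries. Suv39h2 was 25.1 and 26.2 scaled FPKM in KO MII, below the 3 WT libraries, with a log2 difference of -0.12 (95% interval -0.26 to 0.01, adjusted p = 0.218). Cbx1 was 61.5 and 67.0 in KO, also below all WT libraries (-0.11, interval -0.25 to 0.03, adjusted p = 0.326), and so was Suv39h1 (-0.08, interval -0.20 to 0.03, adjusted p = 0.383). These 3 of 9 genes whose groups did not overlap stand beside 40.4% of all genes. For the other 6 the intervals lay between -0.25 and 0.33. Among them Kdm4a, at 37.15 and 30.66 in KO, had an interval of -0.08 to 0.14. Ehmt2 and Kdm4c were below an FPKM of 1 in all MII libraries, where this log2 scale holds differences near 0. Kdm4a was called, higher in KO by 0.16 (adjusted p = 0.016), when KO MII replicate 2 was left out, which leaves 1 KO library whose spread is taken from the other groups.

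At PN3 the lowest unadjusted p was that of Suv39h2, at 30.3, 32.6, 30.6 and 26.8 in KO against 36.5, 37.7, 31.0 and 30.9 in WT (log2 difference -0.17, interval -0.33 to -0.02, adjusted p = 0.240). The groups of all 9 genes overlapped at PN3, beside 10.2% of all genes whose groups did not, and likewise all overlapped at E2C, beside 9.74% of all genes. At E2C the intervals were wide, from -0.79 to 0.999 for Cbx3 and from -0.34 to 1.23 for Ehmt2, whose KO values were 0.967, 0.277 and 0.340. At this spread neither equal levels nor a difference could be shown for these genes at E2C.

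The largest differences were at L2C. Ehmt2 was 2.72, 2.38 and 2.21 scaled FPKM in KO against 7.92, 8.00 and 2.90 in WT. The groups did not overlap, but WT replicate 3 lay next to the KO libraries. The KO mean was 0.388 times the WT mean, with a log2 difference of -0.99 (interval -1.70 to -0.27, adjusted p = 0.140). Kdm4c was 8.97, 9.06 and 9.34 in KO, below 23.6, 14.5 and 11.6 in WT (log2 difference -0.74, interval -1.28 to -0.19, adjusted p = 0.149). These 2 genes of 9 without overlap stand beside 20.1% of all genes.

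Cbx1 was 24.1, 42.8 and 38.7 in KO L2C against 18.8, 12.1 and 24.4 in WT, with an overlap between KO replicate 1 and WT replicate 3. The KO mean was 1.91 times the WT mean and the log2 difference 0.91 (interval 0.41 to 1.41, adjusted p = 0.0639). Cbx3 was 37.0, 26.0 and 29.8 in KO against 69.9, 44.8 and 33.5 (-0.61, interval -1.42 to 0.20, adjusted p = 0.426). Cbx1 thus held 35.7% to 55.7% of the HP1 sum in KO L2C and 18.6% to 37.1% in WT, and these ranges overlapped through WT replicate 3 and KO replicate 1. Ehmt1 was 17.3, 10.6 and 11.4 in KO against 30.1, 25.5 and 10.2 (-0.60, interval -1.27 to 0.06, adjusted p = 0.331). For Suv39h1 (-0.25), Suv39h2 (0.34), Kdm4a (0.10) and Cbx5 (-0.17) the intervals spanned 0 and the groups overlapped.

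These L2C values depended on WT L2C replicate 3, the library whose oocyte and 2-cell marker sums lay with KO. Without it 4 of the 9 genes were called: Ehmt2 (-1.39, adjusted p = 0.00224), Ehmt1 (-1.06, 0.00644) and Kdm4c (-0.95, 0.0092) lower in KO, and Cbx1 (1.13, 0.00145) higher. Among the WT L2C libraries it was the nearest to KO for these 4 genes (2.90, 10.2, 11.6 and 24.4 scaled FPKM in the same order). Leaving it out thus had to widen their differences, and these calls are no separate support. The genes called in all then rose from 93 to 2587 of the 12079 tested. Cbx1 was also called without KO L2C replicate 1 (adjusted p = 0.0372) and on the TPM scale (0.0467), and leaving out any other L2C library called none of the 9. The summed oocyte markers of the remaining WT libraries were 327.6 and 405.7, and those of late 2-cell activation 411.7 and 327.6, against 696.4 to 941.4 and 261.9 to 285.2 in KO. The part of these marker differences in the gene differences was not tested.

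**Figure D3:**
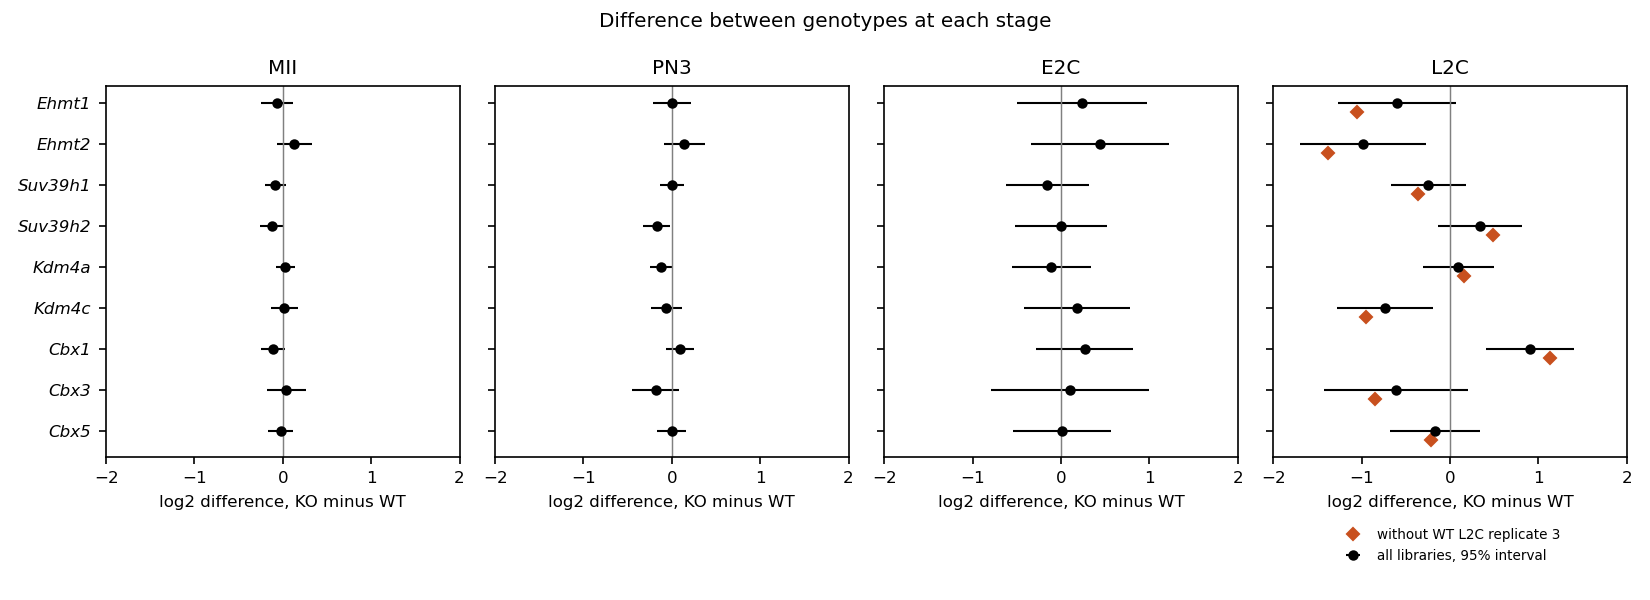
Log2 difference, KO minus WT, of log2(scaled FPKM + 1) for the 9 genes tested at each stage; black points are the estimates with 95% intervals from limma and orange diamonds the estimates at L2C without WT L2C replicate 3. The intervals are narrow at MII and PN3 and wide at E2C and L2C, where Ehmt2 (-0.99), Kdm4c (-0.74) and Cbx1 (0.91) lie farthest from 0.

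The change of the KO difference between successive stages was called for 0 of the 9 genes, beside 2.29% of all genes from MII to PN3, 0% from PN3 to E2C and 0.00828% from E2C to L2C. At an unadjusted p under 0.05 (limma) the counts were 0, 0 and 2 of the 9, beside 1800, 642 and 1381 of all 12079 genes. The largest change among the 9 genes was that of Ehmt2 from E2C to L2C, at -1.43 (interval -2.49 to -0.37, adjusted p = 0.313). It was called without WT L2C replicate 3 (-1.83, adjusted p = 0.0173) and with 1 shared spread (0.0299). As above, leaving out that library had to widen the Ehmt2 change. The change for Kdm4c was -0.91 (adjusted p = 0.381).

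A list of 42 further genes of the H3K9 pathway, of which 41 were tested, gave the surroundings of these genes. From WT E2C to L2C 17 were called higher (41.5%, beside 34.1% of all genes) and 12 lower (29.3%, beside 18.3%), with a median difference of 0.53 against 0.25 over all genes. The 17 include Adnp, which passed the filter only through L2C libraries and so had to differ. From MII to PN3 the counts were 8 higher (19.5%, beside 19.2%) and 10 lower (24.4%, beside 26.1%), which is near the share of all genes. From PN3 to E2C they were 4 higher (9.76%, beside 12.9%) and 6 lower (14.6%, beside 18.1%). All 6 smaller lists had genes called in both directions over these 3 steps. Their counts from E2C to L2C, given next, stand beside a step in which 52.4% of all genes were called, and nothing particular to a list is drawn from them.

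In the SETDB1 axis, the KRAB zinc finger pathway that silences retrotransposons and imprinted loci, 3 of 8 genes rose and 4 fell from E2C to L2C. Setdb1, its methyltransferase, was 59.4, 55.9 and 52.3 scaled FPKM in WT E2C and 22.2, 17.7 and 18.9 in WT L2C (log2 difference -1.47, adjusted p = 7.81e-07). Zfp57, a zinc finger protein of imprinted loci, fell by 2.46 (adjusted p = 3.65e-09), from a group mean of 1393 to 269. Uhrf1, which binds hemimethylated DNA and H3K9 methylation, fell by 1.83 (adjusted p = 1.10e-06). Trim28, the corepressor that recruits Setdb1, had fallen from MII to PN3 (-0.90, adjusted p = 1.58e-05) and rose from E2C to L2C (1.88, adjusted p = 0.00419). Setdb1 and its corepressor thus went in opposite directions at the last step. Zfp57 (0.69) and Atf7ip (0.49), the partner of Setdb1, rose from MII to PN3, and Zfp809, a zinc finger repressor of retroviruses, rose from PN3 to E2C (1.75, adjusted p = 0.00225).

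Among the HP1 partners and heterochromatin genes 5 of 13 rose and 2 fell from E2C to L2C. Adnp, which forms a complex with HP1 and a remodeler, was listed at 0 in all 3 WT E2C libraries and was 10.9, 18.7 and 7.66 in WT L2C (adjusted p = 2.72e-07). It was the 1 pathway gene that passed the filter through L2C libraries alone, so it had to differ, and the 5 that rose include it. Suv420h1, the H4K20 methyltransferase that HP1 recruits, was 1.12, 2.30 and 1.42 in WT E2C and 27.0, 24.4 and 16.6 in WT L2C (log2 difference 3.18, adjusted p = 1.70e-07). Lbr, the lamin B receptor that binds HP1 at the nuclear envelope, fell from 55.9, 51.9 and 55.0 in WT MII to 8.61 to 13.2 in PN3 and 1.51 to 2.97 in E2C, and was 13.4 to 24.6 in L2C. Chaf1a, the chromatin assembly subunit that binds HP1, fell from PN3 to E2C (-1.07, adjusted p = 3.29e-06), and Smchd1 fell from MII to PN3 (-0.48, adjusted p = 5.38e-06).

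Of the 4 HUSH genes, whose complex spreads H3K9 trimethylation over transposons, 3 rose and 1 fell from E2C to L2C. Morc2a, its ATPase partner, rose from a WT mean of 7.61 to 53.2 (log2 difference 2.66), while Mphosph8, its chromodomain reader, had fallen from PN3 to E2C (-1.21, adjusted p = 0.00026) and fell further. Of the 8 other H3K9 demethylases 4 rose and 2 fell, and Kdm3a, a mono- and dimethyl demethylase, had already risen from PN3 to E2C (1.38, adjusted p = 9.51e-05). Of the 5 tested partners and antagonists of the G9a and GLP dimer 1 rose and 2 fell, and Zfp644, a zinc finger partner, rose from PN3 to E2C (0.88, adjusted p = 0.00429). Of the 3 PRDM genes 1 rose and 1 fell.

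**Figure D4:**
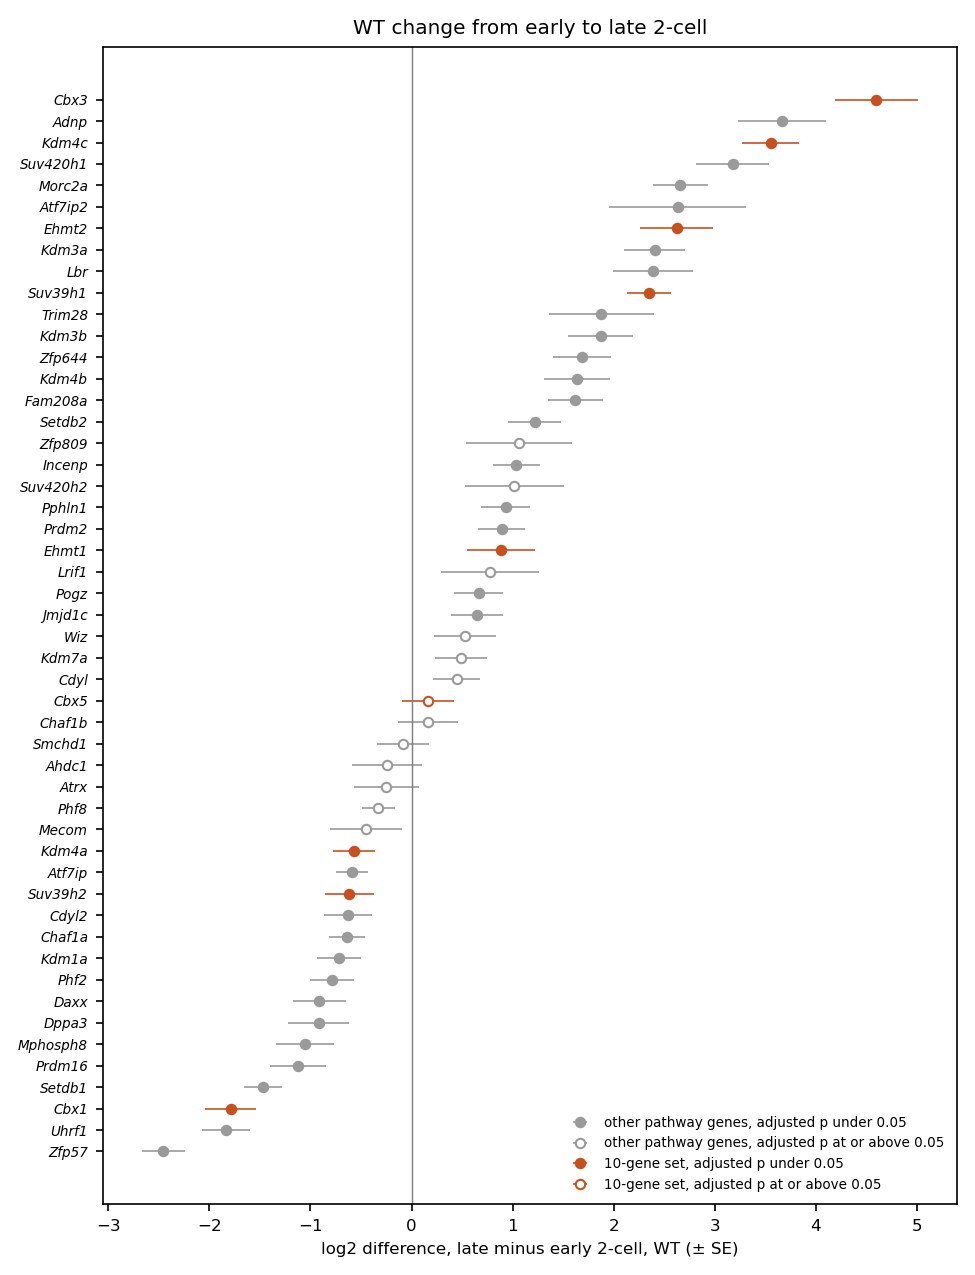
Log2 difference of log2(scaled FPKM + 1), WT L2C minus WT E2C, with its SE, for 50 genes in order of size; orange marks the 9 genes of the set of 10 that were tested, grey the 41 other pathway genes, and filled points an adjusted p under 0.05. Cbx3 (4.60) lies at the top, Kdm4c (3.55) among the highest, and Cbx1 (-1.79) near the bottom beside Uhrf1 (-1.83) and Zfp57 (-2.46).

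Between genotypes, 6 calls among the 41 pathway genes were made over the 4 stages: 3 at MII (7.32%, below the 13.0% of all genes), 2 at PN3 (4.88%, beside 3.05%), 0 at E2C and 1 at L2C (2.44%, beside 0.770%). Morc2a was 4.58 and 4.74 scaled FPKM in KO MII against 7.53, 7.83 and 7.18 in WT (log2 difference -0.59, adjusted p = 8.55e-06). At PN3 it was 3.14 to 3.96 in KO against 4.59 to 6.20 in WT (-0.48, adjusted p = 0.00263). The groups of Morc2a did not overlap at either stage, and it was lower in all 6 KO libraries. Prdm2, a PRDM-family H3K9 methyltransferase, was lower in KO PN3, at 8.99 to 10.6 against 12.8 to 13.8 (-0.38, adjusted p = 0.00364). Kdm1a, the LSD1 demethylase, was higher in KO MII, at 27.9 and 28.5 against 24.1, 23.0 and 24.5 (0.23, adjusted p = 0.00799), and so was Prdm16 (0.29, adjusted p = 0.00865). At L2C only Zfp57 was called, at 479, 450 and 449 in KO against 162, 245 and 401 in WT (0.87, adjusted p = 0.0451). With 1 shared spread none of the 5 MII and PN3 calls held (adjusted p = 1), and 9 of the 41 genes were called at L2C (22%, beside 15.5% of all genes): Zfp57, Uhrf1, Chaf1b and Phf2 higher in KO and Incenp, Morc2a, Zfp644, Pphln1 and Suv420h1 lower (adjusted p = 0.0048 to 0.0396). With each stage fitted alone Morc2a at MII and Prdm2 at PN3 were called, and Morc2a at PN3 (0.0635), Kdm1a (0.0624) and Prdm16 (0.114) were not. Kdm1a was lost without WT MII replicate 2 (0.0637) and Prdm16 without KO MII replicate 1 (0.18). Zfp57 was lost on the deposited values (0.0576), with no filter (0.0568), with L2C fitted alone (0.295) and without WT L2C replicate 1 or 2 or any KO library (0.0832 to 0.326).

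The genes most like the members over the 25 libraries were named for the 3 largest WT steps. For Cbx3 they were Ell2 (Pearson r = 0.994), Plekhf2 (0.993) and Pdxk (0.992), for Kdm4c Wdr77 (0.994), Map3k3 (0.994) and Ctsc (0.993), and for Ehmt2 Sh3bp5l (0.981), Sh2b1 (0.977) and Ubtd2 (0.977). The libraries fall into 4 stages and share their scaling, so these r describe a common course over stages in the same libraries and carry no test.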

How the data were processed

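RNA was measured in 25 libraries of ribosome-depleted RNA with a stranded kit and paired-end reads, per the labels' protocols. The authors deposited 1 FPKM value per gene symbol and library. Trim Galore 0.4.5, HISAT2, StringTie, HTSeq and the builds mm10 and GRCm38 are named in the submitters' processing notes, with no role. FPKM was scaled by each library's median ratio to the gene-wise geometric mean (6492 genes with FPKM of at least 1 throughout). Genes with a deposited FPKM of at least 1 in at least 3 libraries (12079) were tested on log2(scaled FPKM + 1), computed here from the deposited FPKM, which understates the change of low genes.

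limma 3.58.1 (R 4.3.3) was fitted with 8 group means (17 residual degrees of freedom), stage-level precision weights, which assume that each gene's spread follows that of its stage (median SD within a group 0.079, 0.128, 0.352 and 0.322 in order of stage), and a trended robust prior. Benjamini-Hochberg adjustment ran over all 12079 genes per contrast, and "called" means an adjusted p under 0.05. The script was tested on simulated data. Alternatives were no scaling, TPM, a pseudocount of 0.1, no filter, 1 shared spread, stages fitted alone, the replicate number as a block (for the WT steps and the pathway genes named, alternatives added after seeing the data) and leaving out each library.

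The 10 genes and the lists were chosen with earlier results of these data known. Named beyond them were Smarca4, the pathway genes called between KO and WT or in the change of that difference, up to 3 per direction of those called in a WT step, and the 3 genes most like a member. Promoters came from RefSeq (GRCm38.p6, 10 of 10 genes matched) and gene positions from GENCODE M21. Figures were drawn with matplotlib 3.10.9.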

Additional observations from a re-analysis of the deposited data

Results flagged for a closer look

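In KO PN3, replicate 3 stood apart from the other 3 libraries for Ehmt2, at 0.669 scaled FPKM against 0.305 to 0.354, a level below the filter's minimum. In WT PN3, replicate 2 stood apart for Kdm4a, at 41.48 against 44.3 to 44.5. Of 20 pairs of gene and PN3 group examined, 2 were picked out in this way, and chance picks out about 1 in 20.

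The difference between KO and WT in Kdm1a changed between MII and PN3 by -0.328 (log2, adjusted p = 0.0466, limma with Benjamini-Hochberg adjustment). Kdm1a was higher in KO MII (27.9 and 28.5 scaled FPKM against 23.0 to 24.5) and at PN3 it was 29.8 to 31.7 in KO and 31.3 to 34.1 in WT, groups that overlapped, with a log2 difference of -0.10 that was not called (adjusted p = 0.524). The call was lost under each alternative tried, with an adjusted p between 0.0509 and 1.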

How the results depend on the processing

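No result changed sign among those called. With 1 shared spread the genes called between KO and WT numbered 1, 10, 212 and 1873 in order of stage, those of the WT step from MII to PN3 1342, and those of the change of the KO difference 0 from MII to PN3 and 771 from E2C to L2C; of the 9 genes, 3 were called between KO and WT at L2C, 2 in the WT step from MII to PN3, 1 from PN3 to E2C and 1 in the change from E2C to L2C. With the stages fitted alone the counts between KO and WT were 424, 94, 0 and 0, those of the change 14, 1 and 0, and 1 of the 9 genes was called from WT PN3 to E2C. With no filter 5 genes were called at E2C, and 3 and 9 in the change from PN3 to E2C and from E2C to L2C; that last count was 0 on the TPM scale and 0 with a pseudocount of 0.1. On the deposited values 1 of the 9 genes (Cbx1) was called from WT PN3 to E2C, and on the TPM scale 1 (Cbx1) between KO and WT at L2C. In the main fit 31.0% of all genes were called in that WT step and 0.770% between KO and WT at L2C. The 1 gene called in that WT step with the stages fitted alone stands beside the same 31.0%.

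Same-numbered libraries did not deviate together in every pair (correlation of deviations -0.12 to 0.428), and the main fit did not pair them. However, 5 of 8 libraries at PN3, 6 of 6 at E2C and 2 of 6 at L2C correlated best with their own number. The main fit may thus ignore a pairing within a stage. It called 1567 genes between KO and WT at MII, 369 at PN3 and 93 at L2C. With the replicate number as a block 879 genes were called at MII, 1084 at PN3 and 152 at L2C, and 0 in the change from E2C to L2C. With that block 1 of the 9 genes (Kdm4a, adjusted p = 0.0343) was called from WT PN3 to E2C, beside 31.0% of all genes in the main fit. Prdm16 at MII (0.0897) and Zfp57 (0.0561) and Smarca4 (0.05) at L2C were not called with the block.

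Leaving out 1 library gave 767 (without WT MII replicate 2) to 2045 (without KO MII replicate 2) genes at MII, 171 (without KO PN3 replicate 3) to 374 at PN3, 1 to 17 (without WT E2C replicate 2) at E2C and 4 (without KO L2C replicate 3) to 2587 (without WT L2C replicate 3) at L2C. For the change of the KO difference it gave 136 (without WT MII replicate 2) to 644 (without KO MII replicate 2), 0 to 3 (without WT E2C replicate 2) and 0 to 840 (without WT L2C replicate 3) in order of stage. The WT steps gave 4859 to 5093, 2795 to 3774 and 5483 to 6660 genes. Of the 9 genes it gave 0 to 1 at MII, 0 at PN3 and E2C, 0 to 4 at L2C, 4 to 5, 0 and 5 to 8 in the WT steps and 0 to 1, 0 and 0 to 1 in the changes. Smarca4 at L2C lost its call without WT L2C replicate 1 or 2 or KO L2C replicate 2 or 3 (adjusted p = 0.149 to 0.194). It was also lost at L2C with a pseudocount of 0.1 (0.0589), and with the stages fitted alone at E2C (0.431) and L2C (0.295). The median of all genes in the WT step from E2C to L2C was 0.246, 0.24 on the deposited values and 0.332 on the TPM scale, and from PN3 to E2C -0.052, -0.198 and -0.198. Depth is unknown, so no counting error could be given for low genes such as Ehmt2, Kdm4c and Kdm4d before L2C.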

Other observations

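Genes on the opposite strand that start close to a member were looked at after their annotation was seen. Of 4 such genes, C2, a complement gene 204 bases from Ehmt2, was low but highest at L2C, as Ehmt2 was: 0 to 0.192 scaled FPKM in WT E2C and 0.594 to 0.799 in WT L2C, and 0.0667 to 0.497 in KO L2C. Cbx3 faces Hnrnpa2b1, an RNA-binding protein gene whose start lies 466 bases away, and Cbx5 faces Hnrnpa1, 616 bases away. Hnrnpa2b1 was 51.4 to 67.0 scaled FPKM in WT E2C and 76.1 to 86.0 in WT L2C, so it was high at the stages at which Cbx3 was near 1. Hnrnpa1 was 40.8 to 136 in WT E2C and 10.7 to 106.9 in WT L2C. Kdm4d, under 1 in all but 1 library, starts 135 bases from Cwc15, a splicing factor gene, which was 54.3 to 138 scaled FPKM over the WT libraries. Gm11517, a processed pseudogene inside Cbx1 on the opposite strand, was 79.7 to 100 scaled FPKM in WT L2C, 0 to 7.75 in WT E2C and at most 0.299 before, and 69.7 to 94.5 in KO L2C, while Cbx1 fell over that step.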
